A study of Mus musculus with 2 samples.

Results

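The cells described here were 274 of the 3963 cells kept from malignant pleural effusions of mice, 24 of 1116 in library 1 and 250 of 2847 in library 2. They carried RNA of the complement component C1q together with Plac8, Ms4a4c and interferon-inducible genes, and are called Plac8 Ms4a4c cells below. The rule kept barcodes with 300 or more genes and at most 10% mitochondrial UMIs (a UMI is a counted RNA molecule). A cell then needed at least 10 UMIs of C1qa, C1qb and C1qc, and at most 1 of Folr2, Cbr2 and Cd163. It needed under 5 UMIs of Prg4, Alox15, Serpinb2, Cd5l and Fabp4, genes of large resident macrophages. UMIs of the lymphocyte genes Cd3d, Cd3e, Cd3g and Cd79a had to be 0 and those of the neutrophil genes S100a8, S100a9 and Retnlg under 2% of the cell. Last, the summed UMIs of Ms4a4c, Plac8, Mnda, Zbp1 and Rtp4 had to be at least 2 and larger than those of Vcan, F13a1, F10 and Ms4a8a. All of these values came from the cells themselves, and the members were chosen by them. The gate genes are therefore given as a description, and none of them was tested in the main comparisons.

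The labels give 1 group of 2 libraries and no untreated or tumour-free sample. LLC, a tumour line derived from a Lewis lung carcinoma, had been placed in the chest cavity (150000 cells in 100 µl), and cells were taken on day 10. Live cells with CD45, a leukocyte surface protein, and CD11b, an integrin of myeloid cells, were sorted and read with a droplet kit that tags the 3' end of each RNA. The sources used here do not state strain, age or the number of animals behind a library. The p-values measure only how closely differences between classes repeated across 2 libraries.

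Interferons are cytokines, and those of type I are released when cells sense foreign or misplaced nucleic acid. Type I interferon acts through the receptor chains Ifnar1 and Ifnar2 and the kinases Jak1 and Tyk2 and switches on a broad set of genes, whereas interferon gamma has its own receptor and acts mainly on chemokine, GTPase and antigen presentation genes. Monocytes that leave the blood for a serous cavity turn down genes such as Ly6c2 and turn up genes such as those of C1q as they become macrophages. Plac8 is a small cysteine-rich protein found in many monocytes, and Ms4a4c is a membrane protein of the Ms4a family. Zbp1 is a sensor of unusual nucleic acid helices, Rtp4 is an interferon-inducible protein that aids the trafficking of receptors, and Mnda belongs to the Ifi200 family of nuclear DNA-binding proteins.

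Library 1 held 1141 barcodes with 11543829 UMIs and library 2 held 2908 with 20322996. Of the barcode sequences 4 occurred in both, and none marked a Plac8 Ms4a4c cell in both libraries. The median depth of these cells was close in both libraries, 11134 UMIs in library 1 (2757 to 20873 over 24 cells) and 11818.5 in library 2 (1827 to 44248 over 250 cells). Their share was 2.15% of library 1 (exact binomial 95% interval 1.38% to 3.18%) and 8.78% of library 2 (7.77% to 9.88%). The intervals cover counting error only, and the smallest barcode held 1999 UMIs in library 1 but 500 in library 2, so the denominators differ in kind. The libraries also differed in sex RNA. In library 1, 18 of the 24 cells held Y-linked RNA and 0 held Xist; in library 2, 220 of the 250 held Xist alone, 12 Y-linked RNA alone and 8 both. Library, sex and animal therefore cannot be told apart, and differences between the libraries are given without a test.

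The gate divided the cells of the 2 libraries very differently. Among cells that met every other limit, the Plac8 set outnumbered the Vcan set in 24 of 114 cells of library 1 (21.1%, interval 14% to 29.7%) and in 250 of 278 cells of library 2 (89.9%, interval 85.8% to 93.2%). The mirror class, in which the Vcan set was the larger with at least 2 UMIs, held 87 and 26 cells and is called the Vcan F13a1 class. The Plac8 set gave a median of 21.5 UMIs per member cell in library 1 (3 to 59) and 91.5 in library 2 (4 to 283), while the Vcan set gave 10.5 and 24. Plac8 alone supplied 53.2% of the Plac8 set UMIs in library 1 and 63.4% in library 2, and Ms4a4c 18% and 15.7%, so the gate rested mostly on these genes and less on Zbp1 (11.4% and 8.53%), Rtp4 (11.4% and 7.82%) and Mnda (5.89% and 4.56%).

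**Figure D1:**
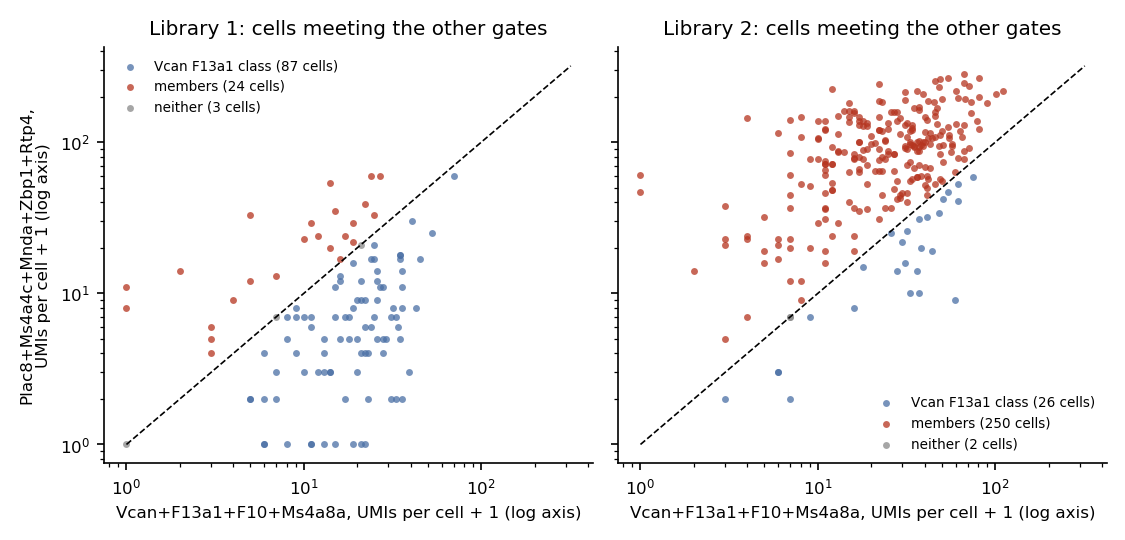
Each point is 1 cell that met the other limits; the x axis gives its UMIs of Vcan, F13a1, F10 and Ms4a8a plus 1 and the y axis its UMIs of Plac8, Ms4a4c, Mnda, Zbp1 and Rtp4 plus 1, both on log axes, with the line of equal counts dashed. Most points of library 1 lie below the line (87 Vcan F13a1 cells, 24 members) and most of library 2 above it (26 and 250).

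Cells near the border were a larger part of library 1 than of library 2. In library 1, 6 of 24 members exceeded the Vcan set by 1 to 5 UMIs (medians 6.5 against 2.5 UMIs) and 24 cells outside fell short by 0 to 5 (5.5 against 7.5). In library 2 these were 10 of 250 members (13 against 8.5) and 9 cells outside (6 against 6). Ifi27l2a, an interferon-inducible gene that the gate did not use, stood at 594 CPM (UMIs per 1e6 UMIs of the class) in the members just inside and 200 in the cells just outside in library 1, but at 309 and 1108 in library 2, so at the border its order was not the same in both.

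The label's markers set the Plac8 Ms4a4c cells apart from the Vcan F13a1 class but not from every class of the effusion. Plac8 stood at 1080 CPM in members of library 1 and 4590 in library 2, against 374 and 1352 in the Vcan F13a1 class. It stood at 451 and 3486 in C1q cells with 2 or more UMIs of Folr2, Cbr2 and Cd163 (the Folr2 Cd163 class), and 1903 and 5095 in cells with 2 or more Ly6c2 UMIs and under 10 C1q UMIs (the Ly6c2 low-C1q class). Ms4a4c stood at 366 and 1137 CPM in members, at 152 and 555, 169 and 754, and 377 and 1117 in these classes in the same order. The Ly6c2 low-C1q class thus carried more Plac8 than the members in both libraries and about as much Ms4a4c. Ifi27l2a stood at 1192 and 1549 CPM in members, 289 and 451 in the Vcan F13a1 class, 697 and 1368 in the Folr2 Cd163 class and 845 and 1438 in the Ly6c2 low-C1q class. Of the 6 markers, Ifi27l2a, Zbp1 and Rtp4 were highest in the members in both libraries, though Zbp1 and Rtp4 of library 2 were within a few CPM of the Ly6c2 low-C1q class (617 against 614, and 566 against 565).

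**Figure D2:**
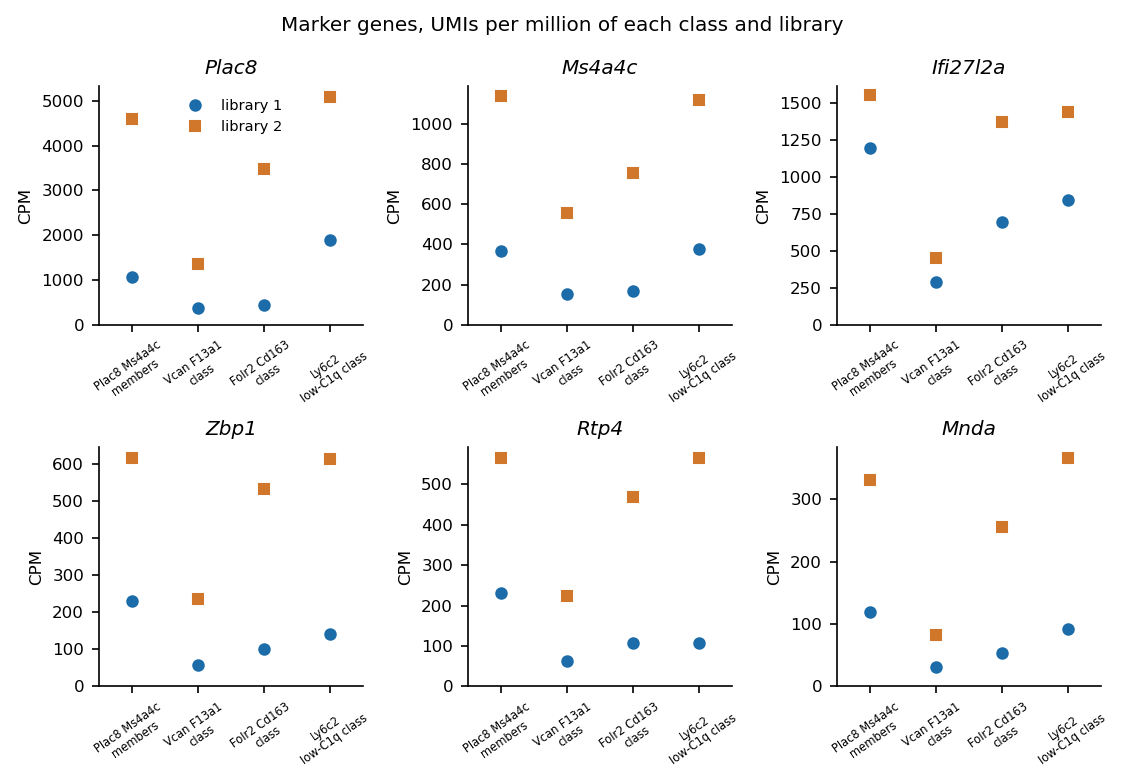
Each panel plots 1 marker gene, with the class of cells on the x axis and its level in CPM on the y axis, from 0; circles are library 1 and squares library 2. All 6 genes were higher in library 2 than in library 1 in each of the 4 classes, and the Vcan F13a1 class was lowest in each library.

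In the mm10 build and the GENCODE annotation, Plac8 (ENSMUSG00000029322) lies on chromosome 5 from 100553725 to 100572245 on the minus strand, Ms4a4c (ENSMUSG00000024675) on chromosome 19 from 11404770 to 11427246 on the plus strand, and Ifi27l2a (ENSMUSG00000079017) on chromosome 12 from 103442167 to 103443680 on the minus strand. Zbp1 (ENSMUSG00000027514) lies on chromosome 2 from 173206612 to 173218923, minus strand. Rtp4 (ENSMUSG00000033355) lies on chromosome 16 from 23520291 to 23614222, plus strand, across part of Masp1 on the minus strand. Mnda (ENSMUSG00000026536), on chromosome 1 from 173896345 to 173913046, minus strand, lies inside the annotated span of its close relative Mndal on the same strand, and the division of reads between them is not stated. All are protein-coding.

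The cells carried genes of macrophages and of monocytes side by side. Their C1qa level, 1638 and 1089 CPM in libraries 1 and 2, was set by the gate. The receptor for macrophage colony stimulating factor, Csf1r, stood at 167 and 310 CPM, the macrophage glycoprotein Adgre1 at 43.5 and 115, the lysosomal protein Cd68 at 598 and 448, and Ccr2, the chemokine receptor by which monocytes leave the marrow, at 1225 and 1286. Ly6c2 stood at 112 and 465 CPM, below the 659 and 884 of the class gated on it. That the cells derive from monocytes was not measured. The gate fixed Cd3d, Cd3e, Cd3g and Cd79a at 0. Of defining genes it did not use, Siglech and Ccr9 of plasmacytoid dendritic cells, Cd28 of T cells, Ms4a1 of B cells, Ncr1 of natural killer cells and Krt8, Krt18 and Epcam of epithelial cells were at 0, and the mesothelial list summed to 0. The plasmacytoid list, which also holds the interferon-inducible Bst2, summed to 221 and 383 CPM against 81.3 and 205 in the Vcan F13a1 class. Neutrophil markers summed to 1062 and 911 CPM, below the 1333 to 1699 of the Vcan F13a1 and Ly6c2 low-C1q classes. The dendritic cell list summed to 217 CPM in library 1 against 60.3 in library 2, with H2-DMb2 at 156 and 19.1, a difference taken up with the antigen presentation genes below.

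The Vcan F13a1 cells met the same limits as the Plac8 Ms4a4c cells except the last. Against them, interferon-inducible genes were higher in the Plac8 Ms4a4c cells of both libraries. Isg15, a ubiquitin-like protein that is coupled to other proteins after interferon exposure, stood at 83.3 CPM in members and 13.9 in Vcan F13a1 cells of library 1, and at 622 and 72.8 in library 2. The fitted log2 difference was 2.86 ± 0.28 (SE, n = 2 libraries, edgeR adjusted p = 4.3e-05). For Ifi27l2a, with the levels above, it was 1.94 ± 0.16 (edgeR adjusted p = 9.21e-06). Ifi27l2a is a marker of the label, chosen with earlier results of these data known, so its call is a description and no independent support. Of 8475 genes tested, 19 passed at an adjusted p under 0.05 (0.224% of those tested), 16 of them higher in the Plac8 Ms4a4c cells (0.189%) and 3 lower (0.0354%), and all 19 had the same direction in both libraries. Zbp1, Rtp4 and Mnda are themselves interferon targets and were in the gate, so these calls describe genes that went along with the gate genes.

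Antiviral effectors led the list. Oas1a, an enzyme that makes the oligoadenylate signal on double-stranded RNA, stood at 47.1 CPM in members and 8.13 in Vcan F13a1 cells of library 1, and at 145 and 22.8 in library 2 (log2 fold change 2.33 ± 0.39, edgeR adjusted p = 0.0128). Its relative Oasl2 stood at 43.5 and 8.13, and at 151 and 41 (1.92 ± 0.34, edgeR adjusted p = 0.0177). Bst2, or tetherin, which holds budding virus particles at the cell surface, stood at 174 and 51.1, and at 341 and 177 (1.33 ± 0.21, edgeR adjusted p = 0.00803). For each of these genes the members of a library lay above its Vcan F13a1 cells, but the Vcan F13a1 cells of library 2 reached or passed the members of library 1 for Bst2 alone. Phf11b, of a family of zinc finger proteins (1.82 ± 0.32, edgeR adjusted p = 0.0177), Ly6a, the surface antigen Sca-1 (1.91 ± 0.28, edgeR adjusted p = 0.00362), and Ifitm3, which blocks the fusion of viruses in endosomes (0.77 ± 0.15, edgeR adjusted p = 0.0431), were the other called effectors.

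The type I interferon response list of 55 genes, of which 51 were tested, thus had 8 members higher and 0 lower. The label marker Ifi27l2a was among the 8. DESeq2 called 9 higher. At an unadjusted p under 0.05 there were 41 higher and 0 lower, against 343 higher (4.05%) and 175 lower among all 8475 genes. The list's median log2 fold change was 1.34 and that of all genes 0.01. In both libraries 41 of its members were higher and 1 lower, against 1945 (22.9%) and 2533 of all 8475 genes. Some well known members had too few UMIs in library 1 for a value there: Ifit3 had 0 UMIs in members and 0 in Vcan F13a1 cells of library 1, and stood at 54.4 and 9.1 CPM in library 2. The summed level of the list was 14444 CPM in members of library 1 and 20901 in library 2, against 7925 and 15454 in Vcan F13a1 cells, so members of library 1 were below the Vcan F13a1 cells of library 2.

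**Figure D3:**
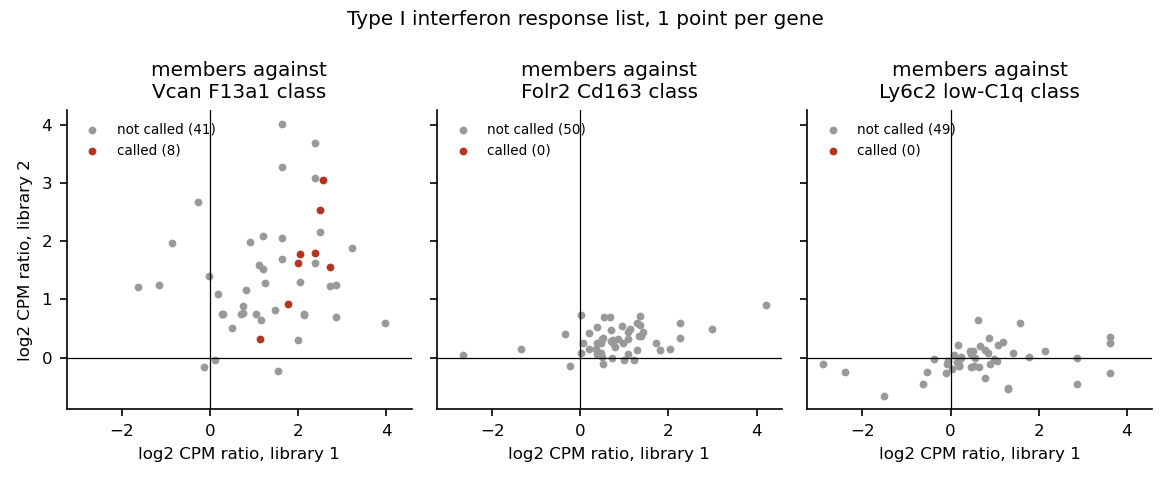
Each point is 1 gene of the type I interferon response list with a UMI in the compared classes of each library; the x axis gives its log2 CPM ratio, members over the other class, in library 1 and the y axis that in library 2. Against the Vcan F13a1 class most points lie in the upper right and 8 were called; against the Folr2 Cd163 and Ly6c2 low-C1q classes 0 were called.

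Of the interferon gamma targets, 14 of 23 tested were higher and 0 lower at an unadjusted p under 0.05, against 343 (4.05%) and 175 of all 8475 genes. Their median log2 fold change was 1.38. In both libraries 12 of them were higher and 2 lower. After adjustment 2 were higher, the guanylate-binding GTPases Gbp2 (36.2 CPM in members and 16.3 in Vcan F13a1 cells of library 1, 1013 and 542 in library 2; log2 fold change 1.01 ± 0.19, edgeR adjusted p = 0.0383) and Gbp3 (1.94 ± 0.39), which rested on 2 UMIs in members of library 1 and lay at the threshold. The chemokines Cxcl9 and Cxcl10 and the GTPases Gbp4, Iigp1 and Gbp2b had 0 UMIs in both classes of library 1, so their values rested on library 2. Of ligands, receptors and signalling proteins, 1 of 18 was higher, Irf7, the factor that amplifies type I interferon production (105 and 29 CPM in library 1, 281 and 95.6 in library 2; 1.57 ± 0.26, edgeR adjusted p = 0.0119). No UMI of Ifnb1, Ifna4 or Ifnl3 was counted in the Plac8 Ms4a4c cells, which allows up to 3 UMIs over each library's cells at this depth. Of the Ifi200 family, relatives of Mnda and sensors of DNA, 6 of 7 were higher at an unadjusted p under 0.05, against 4.05% of all genes. The median log2 fold change was 1.67. After adjustment 2 were higher, Pyhin1 (1.61 ± 0.23, edgeR adjusted p = 0.00362) and Mndal (1.88 ± 0.35, edgeR adjusted p = 0.0268), which shares its span with the gate gene Mnda. Of 13 nucleic acid sensors tested, edgeR and DESeq2 each called 0. At an unadjusted p under 0.05 there were 4, against 518 of all 8475 genes.

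Outside the interferon lists, B2m, the light chain of MHC class I, was higher: 2275 CPM in members and 1345 in Vcan F13a1 cells of library 1, 4516 and 2648 in library 2 (log2 fold change 0.80 ± 0.12, edgeR adjusted p = 0.00596). It was the 1 called member of 23 MHC class I presentation genes. Of these, 14 were higher and 0 lower at an unadjusted p under 0.05, against 343 (4.05%) and 175 of all 8475 genes. Their median log2 fold change was 0.59. Ly6e, a small membrane-anchored protein that restricts the entry of some viruses (1.13 ± 0.19, edgeR adjusted p = 0.0141), and Ly86, the partner of the receptor Cd180 (1.04 ± 0.20, edgeR adjusted p = 0.0341), were higher too. The 3 lower genes were Wfdc21, a secreted whey acidic protein (68.8 against 240 CPM in library 1 and 111 against 360 in library 2; fell by 1.61 ± 0.18 on the log2 scale, edgeR adjusted p = 0.000315), the neutrophil-attracting chemokine Cxcl3 (551 against 1069 and 94.3 against 350; edgeR adjusted p = 0.00362) and Fn1, the matrix protein fibronectin (710 against 1437 and 572 against 1506; edgeR adjusted p = 0.00793). Of 20 classical monocyte genes, 1 was higher (Ifi27l2a) and 1 lower (Fn1). At an unadjusted p under 0.05, 8 were lower, against 175 of all 8475 genes.

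The number of calls against the Vcan F13a1 class changed with the processing. Without the library as a block 0 genes were called, with 230 at an unadjusted p under 0.05, and with all cells thinned to 3000 UMIs and gated again 7 of the 3568 genes then tested were called, 4 higher, among them 3 of the interferon list.

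The members could also be gated by Plac8 and Ms4a4c alone, which leaves Zbp1, Rtp4 and Mnda out of the gate. These genes are still markers of the label, chosen with earlier results of these data known. Their values here are thus a description and no independent support. The gate by Plac8 and Ms4a4c held 17 cells of library 1, under the 20 cells set for a class, and 232 of library 2. Zbp1 (log2 fold change 1.28 ± 0.20, edgeR adjusted p = 0.00806), Mnda (1.37 ± 0.20, edgeR adjusted p = 0.00619) and Rtp4 (0.93 ± 0.18, edgeR adjusted p = 0.0321) were higher in these cells than in the mirror class. Of the 51 interferon list genes 12 were called higher, against 27 of all 8487 genes tested with this gate. Isg15 had a log2 fold change of 2.20 ± 0.21 there. Gated by Zbp1, Rtp4 and Mnda alone, 6 cells of library 1 and 86 of library 2 remained.

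The start regions of the called genes were searched on both strands for GAAA followed, after any 2 bases, by GAAA, the core of the interferon-stimulated response element. In the RefSeq promoter table of build GRCm38.p6, 12 of the 16 genes called higher than in the Vcan F13a1 class had an entry. Of these, 8 held the motif within the 250 bases before a start, namely Isg15, Oas1a, Bst2, Gbp2, Gbp3, Phf11b, Mndal and B2m. Ifitm3, Irf7, Ly86 and Oasl2 did not hold these letters there, and of the gate genes Plac8 and Ms4a4c, the 2 with an entry, did not either. Of all 32851 starts in the table, 2.98% held the motif. That share counts starts, whereas the 8 of 12 counts genes with the motif at any of their starts. The 150 bases before the start are shown for 6 called genes with a match and for both naming genes, 5' to 3' on the gene's strand, with each match in capitals (overlapping matches run together, 3 in Isg15 and 2 each in Oas1a and Bst2).
Isg15 (chr4:156200819-156200968, minus strand): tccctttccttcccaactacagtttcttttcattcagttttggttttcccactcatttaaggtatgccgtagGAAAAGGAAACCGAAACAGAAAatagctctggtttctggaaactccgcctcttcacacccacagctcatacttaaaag
Oas1a (chr5:120907526-120907675, minus strand): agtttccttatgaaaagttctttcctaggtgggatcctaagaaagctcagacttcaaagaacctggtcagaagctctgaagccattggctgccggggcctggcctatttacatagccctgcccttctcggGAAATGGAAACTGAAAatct
Bst2 (chr8:71537473-71537622, minus strand): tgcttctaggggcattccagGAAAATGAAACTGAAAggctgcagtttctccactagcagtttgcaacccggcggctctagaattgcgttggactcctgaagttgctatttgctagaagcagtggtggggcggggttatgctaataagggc
Gbp2 (chr3:142620513-142620662, plus strand): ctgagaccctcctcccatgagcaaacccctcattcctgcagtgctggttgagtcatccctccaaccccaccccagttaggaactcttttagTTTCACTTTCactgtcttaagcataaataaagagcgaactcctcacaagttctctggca
Phf11b (chr14:59341331-59341480, minus strand): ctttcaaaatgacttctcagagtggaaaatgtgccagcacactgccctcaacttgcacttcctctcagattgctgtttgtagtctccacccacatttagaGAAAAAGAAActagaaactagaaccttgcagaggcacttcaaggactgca
B2m (chr2:122147537-122147686, plus strand): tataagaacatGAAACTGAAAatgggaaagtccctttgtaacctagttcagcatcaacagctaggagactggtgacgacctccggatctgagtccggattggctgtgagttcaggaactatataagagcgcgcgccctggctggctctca
Plac8, of 2 starts the upstream one (chr5:100572206-100572355, minus strand): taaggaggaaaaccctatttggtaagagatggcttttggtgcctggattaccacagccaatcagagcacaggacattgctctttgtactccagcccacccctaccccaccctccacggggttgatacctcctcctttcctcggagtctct
Ms4a4c (chr19:11407511-11407660, plus strand): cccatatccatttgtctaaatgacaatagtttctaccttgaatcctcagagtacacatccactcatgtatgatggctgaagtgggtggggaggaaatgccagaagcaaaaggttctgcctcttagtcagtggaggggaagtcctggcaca
The matches began 78, 72 and 66 bases before the start in Isg15, 20 and 14 in Oas1a, 130 and 124 in Bst2, 59 in Gbp2, 50 in Phf11b and 139 in B2m. A match is a description of the letters, not a measured binding site.

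The interferon genes also differed between the libraries within each class. Within the Plac8 Ms4a4c cells Gbp2 went from 36.2 CPM in library 1 (10 UMIs, exact Poisson 95% interval 17.4 to 66.6) to 1013 in library 2 (3446 UMIs, 979 to 1047). Isg15 went from 83.3 to 622. The summed interferon gamma target list went from 427 to 3344 CPM in the members, from 297 to 1611 in Vcan F13a1 cells, from 313 to 2637 in Folr2 Cd163 cells and from 486 to 3881 in Ly6c2 low-C1q cells. The higher level of library 2 was thus shared by all 4 classes, and it went along with library, sex RNA and antibody tags, which cannot be told apart.

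**Figure D4:**
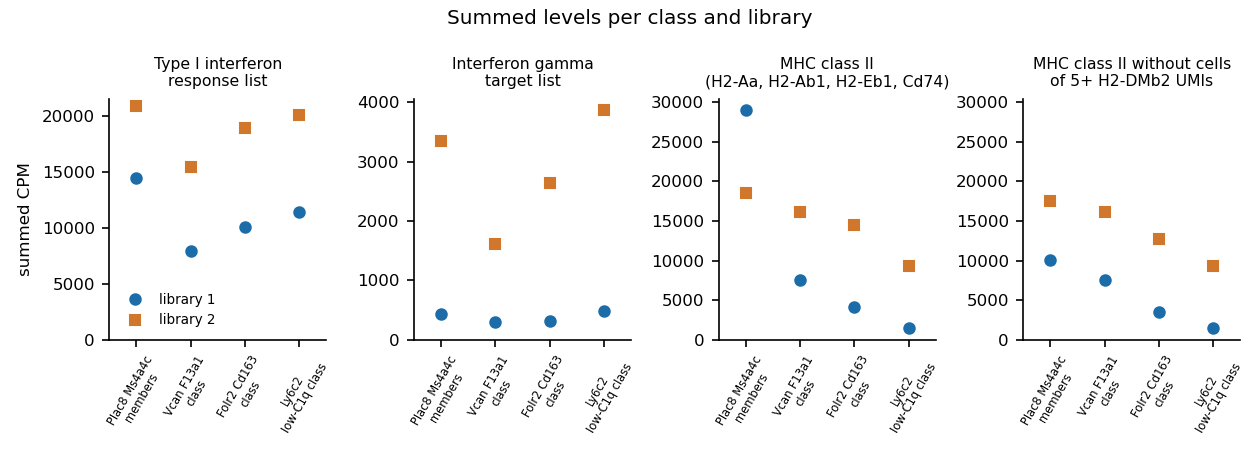
The class of cells is on the x axis and the summed level of a gene list in CPM on the y axis, from 0; circles are library 1 and squares library 2. The 2 interferon lists were higher in library 2 in all 4 classes, and the MHC class II level of members of library 1, 29041 CPM, dropped to 10084 once the cells with 5 or more H2-DMb2 UMIs were left out.

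Against the Folr2 Cd163 cells, which share the C1q genes, the Plac8 Ms4a4c cells carried more RNA of the enzymes Sqle, Fdps and Msmo1, each known from sterol synthesis, and less of Ccl8, Pf4, Ltc4s and Timp2. Of 8475 genes, 12 passed (0.142%), 4 higher (0.0472%) and 8 lower (0.0944%), all with the same direction in both libraries. The enzymes were Sqle, which makes squalene epoxide (47.1 CPM in members and 11.7 in Folr2 Cd163 cells of library 1, 33.2 and 12.5 in library 2; log2 fold change 1.62 ± 0.26, edgeR adjusted p = 0.0139), Fdps, which makes farnesyl diphosphate (203 and 39.3, 125 and 60.3; 1.56 ± 0.25, edgeR adjusted p = 0.0134), and Msmo1, which removes methyl groups from sterols (83.3 and 26, 46.7 and 23; 1.28 ± 0.22, edgeR adjusted p = 0.0184). In each library the summed level of the members lay above that of the Folr2 Cd163 cells for all of them, which the choice of named genes required. Overlap between single cells was not measured. The level was not particular to the members. Ly6c2 low-C1q cells stood higher still, at 60.6 and 40.6 CPM for Sqle, 219 and 148 for Fdps and 137 and 79.4 for Msmo1. Vcan F13a1 cells passed the members for Fdps (127) and Msmo1 (50.1) in library 2 only, and for Sqle in neither library. Clec4b1, a C-type lectin, was the other gene higher than in the Folr2 Cd163 class (1.72 ± 0.33, edgeR adjusted p = 0.0453). It rested on 8 UMIs in members of library 1. Its call was lost when the cells with 5 or more H2-DMb2 UMIs were left out (log2 fold change 1.34).

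The lower genes were led by the chemokine Ccl8, with 0 UMIs in members of library 1 and 24.7 CPM in library 2 against 48.4 and 193 in Folr2 Cd163 cells (edgeR adjusted p = 2.9e-05). Ltc4s, which makes a cysteinyl leukotriene, stood at 61.6 against 351 and at 22 against 89.8 CPM (log2 fold change -2.18 ± 0.25, edgeR adjusted p = 0.000313). Pf4, a chemokine of platelets that macrophages also make, stood at 3837 against 16104 and at 1612 against 4493 (-1.77 ± 0.20, edgeR adjusted p = 0.000313). Timp2, an inhibitor of metalloproteinases, stood at 10.9 against 117 and at 17.3 against 47.1 (-1.88 ± 0.34, edgeR adjusted p = 0.0315). In each of these the members of a library lay below its Folr2 Cd163 cells. Arg1, the arginine-degrading enzyme, fell by 0.76 ± 0.13 on the log2 scale (edgeR adjusted p = 0.0184), a call that was lost without the cells of 5 or more H2-DMb2 UMIs (log2 fold change -0.59), and Mtss1, Mt2 and Wfdc17 were also lower. The platelet marker list, which holds Pf4, summed to 5195 and 1723 CPM in members and 18807 and 4817 in Folr2 Cd163 cells, with Gp9 and Gp1bb at 0 in members; its part in the result was not tested.

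Of the macrophage maturation list 2 of 29 genes were lower, Ccl8 and Pf4, and 13 were lower at an unadjusted p under 0.05, against 226 of all 8475 genes. No interferon gene passed against this class: edgeR called 0 of the 51 type I interferon genes and DESeq2 called 0, with 19 higher and 0 lower at an unadjusted p under 0.05, against 253 and 226 of all genes, and a median log2 fold change of 0.37. Isg15 stood at 83.3 against 39 and 622 against 441 CPM (0.67 ± 0.19, edgeR adjusted p = 0.31). Without the library block 0 genes were called against this class, with 109 at an unadjusted p under 0.05. With only these 2 classes in the fit 117 were called, 63 higher. The Folr2 limit counts UMIs, and Folr2 Cd163 cells were deeper, with medians of 12749 and 21098 UMIs against 11134 and 11818.5 in members. Thinned to 3000 UMIs and gated again, the Folr2 Cd163 class went from 230 to 124 and from 253 to 60 cells. Of 3568 genes then tested 9 were called, 7 higher and 2 lower.

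Against the Ly6c2 low-C1q cells, the Plac8 Ms4a4c cells carried more RNA of 4 MHC class II genes and of Arg1, Mrc1 and Pf4, and less of Chil3, Hp and Lcn2. Of 8475 genes, 25 passed (0.295%), 11 higher (0.13%) and 14 lower (0.165%), 22 of them with a ratio of the same sign in both libraries. Arg1 stood at 3938 CPM in members and 1458 in Ly6c2 low-C1q cells of library 1, and at 831 and 378 in library 2 (log2 fold change 1.28 ± 0.13, edgeR adjusted p = 0.000191). Mrc1, the mannose receptor, stood at 159 and 42.8, and at 188 and 104 (1.13 ± 0.22, edgeR adjusted p = 0.0285). Pf4 (1.08 ± 0.20, edgeR adjusted p = 0.0206), Ltc4s (1.92 ± 0.37, edgeR adjusted p = 0.0295) and Dab2, an adaptor of receptor uptake (0.91 ± 0.16, edgeR adjusted p = 0.0195), were higher as well. Arg1, Pf4 and Ltc4s thus lay between the Ly6c2 low-C1q and the Folr2 Cd163 cells in both libraries. Timd4, a receptor for phosphatidylserine on dying cells, had 0 UMIs in both classes of library 1 and 58 against 1 in library 2, and Ccl8 had 0 UMIs in members of library 1 against 1, so both calls rested on library 2.

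Of the 14 lower genes, 4 were in the classical monocyte list. Chil3, a chitinase-like protein of monocytes, stood at 1094 CPM in members against 6127 in Ly6c2 low-C1q cells of library 1, and at 2103 against 3636 in library 2 (log2 fold change -1.66 ± 0.27, edgeR adjusted p = 0.0195). Hp, or haptoglobin, which binds free haemoglobin, stood at 333 against 1149 and at 672 against 1164 (-1.23 ± 0.18, edgeR adjusted p = 0.00916). Lcn2, an iron-withholding lipocalin, stood at 25.4 against 202 and at 59.7 against 139 (-1.61 ± 0.25, edgeR adjusted p = 0.0123). The gap was wider in library 1 for each of them. Of the classical monocyte list 4 of 20 were lower and 0 higher (Mgst1, Chil3, Il1r2 and Hp), with 14 lower at an unadjusted p under 0.05, against 298 of all 8475 genes, and a median log2 fold change of -0.75. Also lower were the protease inhibitor Slpi (-1.84 ± 0.35, edgeR adjusted p = 0.0268), the collagenase Mmp8 (-1.86 ± 0.34, edgeR adjusted p = 0.0195), the peptidoglycan-binding protein Pglyrp1 and the filament protein Vim (-0.89 ± 0.15, edgeR adjusted p = 0.0195). Mcemp1, Msrb1 and Actg1 were lower too. Neutrophil markers, which include Mmp8, summed to 1699 and 1340 CPM in the Ly6c2 low-C1q cells against 1062 and 911 in members, and their part in the result was not tested. The granzyme Gzmb, named after its values were seen, was lower on 5 against 79 UMIs of library 2 alone, where natural killer markers of the Ly6c2 low-C1q cells summed to 148 CPM.

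No interferon gene passed against the Ly6c2 low-C1q cells: edgeR called 0 of the 51 type I interferon genes and DESeq2 called 0. At an unadjusted p under 0.05, 4 were higher and 1 lower, against 293 (3.46%) and 298 of all 8475 genes. The list's median log2 fold change was -0.01, that of all genes being close to 0. Isg15 stood at 83.3 against 48.7 CPM in library 1 and at 622 against 571 in library 2 (0.26 ± 0.20, edgeR adjusted p = 0.862). The test at this size recovered 95% of simulated 4-fold changes but 20% of simulated 2-fold changes against this class, so many differences of that size or smaller would be missed. Without the library block 0 genes were called, with 192 at an unadjusted p under 0.05; with only these 2 classes in the fit 4 were called, and with DESeq2 14.

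**Figure D5:**
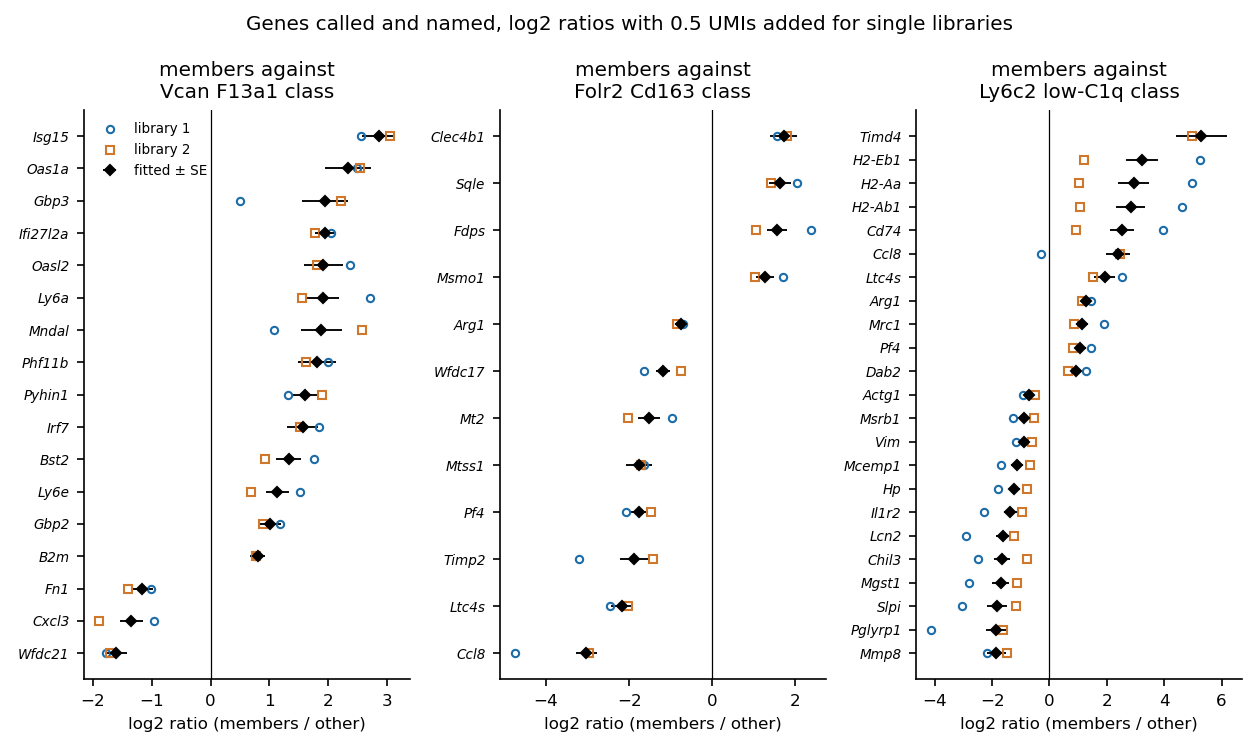
Each row is a gene that passed the test and was named by the rule, with the log2 ratio of members over the other class on the x axis; black diamonds are the fitted log2 fold change with its SE, circles the ratio of library 1 and squares that of library 2. Ratios of the 2 libraries lie on the same side of 0 for all genes shown except Ccl8 against the Ly6c2 low-C1q class (-0.29 and 2.45), and Timd4 has no value in library 1.

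MHC class II genes, which present peptides to helper T cells, were among the largest differences from the Ly6c2 low-C1q class, and in library 1 the size of the gap, though not its direction, rested on 4 cells. H2-Ab1 stood at 5485 CPM in members and 222 in Ly6c2 low-C1q cells of library 1, and at 3821 and 1821 in library 2 (log2 fold change 2.83 ± 0.50, edgeR adjusted p = 0.0195). H2-Aa (2.93 ± 0.54), H2-Eb1 (3.23 ± 0.57) and Cd74 (2.53 ± 0.43), the invariant chain, passed as well, 4 of 10 MHC class II presentation genes in all. Of the 24 members of library 1, 4 held 5 or more UMIs of H2-DMb2, a gene of dendritic and B cells, and with them 74.3% of the class II UMIs of the members; in library 2, 4 of 250 held 8.52%. Summed over the genes H2-Aa, H2-Ab1, H2-Eb1 and Cd74, members stood at 29041 and 18512 CPM, and at 10084 and 17499 without these cells, while Ly6c2 low-C1q cells stood at 1415 and 9273 and held no such cell. Leaving such cells out of every class, an alternative added after seeing the data, the log2 fold changes were 1.75 ± 0.28 for H2-Ab1 (edgeR adjusted p = 0.00392), 1.81 ± 0.32 for H2-Aa (edgeR adjusted p = 0.00841), 1.90 ± 0.29 for H2-Eb1 (edgeR adjusted p = 0.00368) and 1.66 ± 0.24 for Cd74 (edgeR adjusted p = 0.00299). The calls of these genes were lost with DESeq2 and with only the 2 classes in the fit.

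The same cells bore on the other comparisons. Against the Vcan F13a1 class edgeR and DESeq2 called 0 of 10 MHC class II genes. At an unadjusted p under 0.05, 8 were higher, against 343 (4.05%) of all 8475 genes. H2-Ab1 had a log2 fold change of 1.43 ± 0.46 with the H2-DMb2 cells and 0.22 ± 0.27 without them. Against the Folr2 Cd163 class edgeR and DESeq2 also called 0 of 10. At an unadjusted p under 0.05, 8 were higher, against 253 (2.99%) of all 8475 genes. H2-Ab1 had 1.90 ± 0.47 with the H2-DMb2 cells and 1.02 ± 0.27 without them (edgeR adjusted p = 0.212). The 4 cells of library 1 lacked the dendritic gene Cd209a, since members of library 1 held 0 UMIs of it. The whole dendritic cell list went the other way there. It summed to 217 CPM in members, of which H2-DMb2 gave 156, against 13.9 in Vcan F13a1 and 19.5 in Folr2 Cd163 cells. Whether the 4 cells were dendritic cells was not tested.

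The Plac8 Ms4a4c cells varied widely among themselves in both programmes. Thinned to 3000 UMIs each, members of library 1 held a median of 42 UMIs of the type I interferon list (10th to 90th percentile 23.2 to 67.6, 23 of 24 cells deep enough) and those of library 2 a median of 63 (36 to 91.8, 243 of 250 cells). The medians of Vcan F13a1 cells were 23 and 44, those of Folr2 Cd163 cells 28 and 56 and those of Ly6c2 low-C1q cells 30 and 59. Unthinned medians were 153.5 and 265 in members, 75 and 124 in Vcan F13a1 cells. For the 4 MHC class II genes the thinned medians of members were 15 and 35, with a 10th to 90th percentile of 0.2 to 215 and of 1 to 140, against medians of 3 and 1 in Vcan F13a1 cells, 2 and 33 in Folr2 Cd163 cells and 1 and 2 in Ly6c2 low-C1q cells. The class II genes thus ranged from nearly absent to abundant within the members, and the interferon list less so.

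Class II and monocyte genes tended to lie in different members of library 2. The Spearman correlation of the class II UMIs with those of Ly6c2, Ccr2, Chil3 and Hp was -0.45 over 243 cells of library 2 and -0.12 over 23 cells of library 1; cells of a library share its depth, sort and droplets, and no test was made. That of Plac8 with the interferon list was 0.35 in library 2 and 0.01 in library 1.

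The genes that the series title bears on, TIMP1, an inhibitor of metalloproteinases, and efferocytosis, the uptake of dying cells, had few calls here, namely Timp2 against the Folr2 Cd163 class and Timd4 against the Ly6c2 low-C1q class. Timp1 (ENSMUSG00000001131; chromosome X, 20870166 to 20874735, plus strand, overlapping Syn1 on the other strand) stood at 207 CPM in members of library 1 and 59.1 in library 2. It stood at 172 and 123 in Vcan F13a1 cells (log2 fold change -0.33 ± 0.26, edgeR adjusted p = 0.996), 142 and 76.8 in Folr2 Cd163 cells and 129 and 65.6 in Ly6c2 low-C1q cells, and the order of the classes was not the same in both libraries. Mertk, a receptor kinase for dying cells, stood at 10.9 and 24.4 CPM in members (3 and 83 UMIs) against 18.6 and 18.2, 30.5 and 29.2, and 1.48 and 19.2 in the same classes, and did not pass in any of the 3 comparisons. Il10ra, the interleukin 10 receptor chain, stood at 18.1 and 53.2 CPM and did not pass either, nor did Axl and Il10, on 3 and 21 and on 0 and 40 UMIs. Of 15 efferocytosis receptors and bridging molecules tested, edgeR and DESeq2 each called 0 against the Vcan F13a1 class and 0 against the Folr2 Cd163 class. At an unadjusted p under 0.05 there was 1 against the Vcan F13a1 class, where 518 of all 8475 genes reached this. Against the Folr2 Cd163 class there were 4, where 479 of all 8475 genes did. Against the Ly6c2 low-C1q class Timd4 was the 1 called, on library 2 alone, and DESeq2 called 0. There 3 were higher and 3 lower at an unadjusted p under 0.05, against 293 and 298 of all 8475 genes.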

How the data were processed

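Droplet RNA counts of 2 libraries of sorted pleural myeloid cells were analysed. The deposited values are whole-number UMI counts per gene and barcode, made by the authors with Cell Ranger 3.0.1 per the submitters' processing notes, with genes as Ensembl IDs and symbols per the file headers. How empty droplets, doublets and overlapping genes were treated before deposit is not stated. The members and the gene lists were chosen with earlier results of these data known.

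Barcodes with 300 or more genes and at most 10% mitochondrial UMIs were kept (1116 and 2847). Counts were summed per library and class, 4 classes in 2 libraries. The tests used edgeR 4.0.16 in R 4.3.3 (quasi-likelihood, TMM, filterByExpr), with class and library as terms and 3 residual degrees of freedom. Benjamini-Hochberg adjustment ran over all 8475 genes of a comparison, and the 32 gate genes were left out. The library block is in the design because classes of a library share its cells, animals and processing. Fold changes are members minus the other class, and ratios of single libraries had 0.5 UMIs added. DESeq2 1.42.0, other scalings, filters, gates, thinning to 3000 UMIs, and leaving out top doublet scores (10 and 65 barcodes) were alternatives. The main results kept these barcodes. The fit was tested on simulated data with known changes in 8537 genes, where it recovered 87% of 4-fold and 19% of 2-fold changes against the Vcan F13a1 class and called 6 unchanged genes.

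Named genes were, per comparison, the 12 highest and 12 lowest among those called that had the same sign in both libraries and 50 or more UMIs, then up to 6 called members per list and the genes of the series title. Called genes outside the rule (Ifitm3, Ly86, Gzmb) and genes that did not pass, such as Ifit3 and Cxcl10, were chosen after their values were seen. Depth was 11543829 and 20322996 UMIs. Intervals are exact (Clopper-Pearson or Poisson, 95%) and cover counting error only. Some results are not reported here.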

Additional observations from a re-analysis of the deposited data

Results flagged for a closer look

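Library 2 carried antibody tag counts, BC2 and BC3, which the comparisons did not use and whose meaning the labels do not give. Of its 250 Plac8 Ms4a4c cells, 241 had more BC2 than BC3 counts and 9 had more BC3, with medians of 6399 and 701 counts per cell. Among all 2847 cells kept from that library 1146 lay on the BC2 side and 1701 on the BC3 side. What the tags stood for was not tested.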

How the results depend on the processing

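Against the Vcan F13a1 class 19 genes were called, and 97 without the filter on low counts, 56 with only 2 classes in the fit, 32 with the gate by Plac8 and Ms4a4c, 7 with cells thinned to 3000 UMIs and 0 without the replicate block (230 at an unadjusted p under 0.05). Against the Folr2 Cd163 class 12 were called, and 91 without the filter, 117 with 2 classes, 25 with the gate by Zbp1, Rtp4 and Mnda and 0 without the block (109 unadjusted). Against the Ly6c2 low-C1q class 25 were called, and 125 without the filter, 14 with DESeq2, 4 with 2 classes, 55 with thinned cells and 0 without the block (192 unadjusted). The 8 calls of the interferon list became 21 without the filter, 3 with thinned cells and 0 without the block (4 unadjusted). The cause of these changes was not tested. The share of members in library 1 went from 2.15% to 0.538% with the gate by Zbp1, Rtp4 and Mnda, and in library 2 from 8.78% to 3.02% with that gate, 20.7% among cells of 3000 or more UMIs and 21.0% on the BC2 side. The gates by Plac8 and Ms4a4c and by Zbp1, Rtp4 and Mnda fell under the 20 cells set for a class of library 1 and were kept. Of 52 called results for named genes, 52 held with RLE scaling, 50 without TMM, 32 with only 2 classes in the fit, 30 with the gate by Zbp1, Rtp4 and Mnda, 27 with thinned cells and 0 without the block. DESeq2 kept 37 and lost 8, and gave no adjusted p for the others.

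Direction turned for genes that were not called. Mertk against the Vcan F13a1 class came to -0.0136 with 2 classes, Axl to -0.75 with the gate by Plac8 and Ms4a4c and Il10 to -0.46 with the gate by Zbp1, Rtp4 and Mnda. Timp1 against the Folr2 Cd163 class came to 0.0048 with RLE scaling, 0.0846 with DESeq2, 0.18 without the block, 0.0582 with the gate by Plac8 and Ms4a4c and 0.0023 without top doublet scores. Against that class Il10 came to -0.0222 with the gate by Zbp1, Rtp4 and Mnda and Il10ra to -0.0282 with thinned cells. Against the Ly6c2 low-C1q class Timp1 came to -0.00098 with the gate by Zbp1, Rtp4 and Mnda and -0.16 without cells of 5 or more H2-DMb2 UMIs, and Il10 to -0.0729 with that gate. Leaving out a library gives ratios with no test, since no residual degrees of freedom remain, and Ccl8 against the Ly6c2 low-C1q class ranged from -0.29 to 2.45, the 1 called gene to turn.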
